A study of Mus musculus with 40 samples.

Results

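Liver gene expression was compared between gonadectomized female and male mice that received the same estradiol pellet. The groups were the 5 ovariectomized females on estradiol (labelled Ovarectomized + estrogen, animals 33 to 37) and the 5 castrated males on estradiol (Castrated + estrogen, animals 41 and 43 to 46). They were chosen by those labels and make up 10 of the 40 livers of the series. All mice were C57BL/6J, an inbred strain, were fed chow with 4% fat and were killed at 14 weeks after fasting for 12 h. The gonadectomized mice had lost their gonads at 8 weeks and carried a pellet from 12 weeks on. The estradiol pellet held 0.5 mg for release over 21 days, and the labels state about 300 pg/ml of estradiol in plasma. The other 30 mice served as comparison: 5 intact females and 5 intact males, 5 ovariectomized and 5 castrated mice on placebo, and 5 of each on a 5 mg pellet of dihydrotestosterone (DHT), a potent androgen that cells do not convert to estradiol. Whether the intact mice carried a pellet is not said in the labels. Each liver was read on its own array against 1 pool of mouse liver, so values are log2 ratios to that pool and replicates are separate animals.

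The liver is one of the most sexually dimorphic organs of the mouse. Many of its sex-biased genes encode enzymes that metabolize steroids, drugs and bile acids, and most follow the pattern of pituitary growth hormone secretion, pulsatile in males and near continuous in females, which acts through the transcription factor STAT5. Testosterone shapes that pattern in males, and estradiol acts both on the pituitary and directly on hepatocytes through the estrogen receptor encoded by Esr1. With gonads removed and the same estrogen given to both sexes, the comparison asks which differences between female and male liver were still seen.

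Arrays have no read depth, so precision is limited by how many arrays a group holds. The table held 23574 probes on 40 arrays with 0 missing values, and the median residual SD of a probe within groups was 0.146 on the log2 scale. A probe was called at a Benjamini-Hochberg adjusted p under 0.05 in a limma fit of 8 group means, adjusted over all probes. A named gene is represented by 1 probe, which left 10440 autosomal genes. Sex in the labels was checked on Eif2s3y and Kdm5d of the Y chromosome, whose values did not overlap between the 20 females and the 20 males of the series. Hepatocyte markers, 10 of 12 measured, had a median difference of -0.05 between the groups on estradiol.

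On estradiol, few genes differed between ovariectomized females and castrated males. Of 23574 probes 32 were called (0.136%), 15 higher in females (0.0636%) and 17 higher in males (0.0721%). They comprised 4 probes of Y-linked genes, 17 probes of 16 autosomal genes (0.153% of the 10440), 0 of X-linked genes and 11 probes without a usable gene name. The unnamed probes differed by -7.30 to 6.35, and 9 of them were also called between intact females and males. Of the 16 autosomal genes 8 were higher in females (0.0766%), led by the sulfotransferase Sult2a1, and 8 were higher in males (0.0766%), led by the cytochrome P450 Cyp2d9. Their differences ran from 1.28-fold to 15.2-fold, and 5 reached 2-fold (0.0479% of autosomal genes). The groups did not overlap for 3 of the 8 female-side genes, against 22 of all autosomal genes (0.211%), and for 7 of the 8 male-side genes, against 72 (0.69%), in all 10 of 16 against 94 (0.9%). The 16 genes were called on the same animals, which favours groups that do not overlap, so these counts are a description. At an unadjusted p under 0.05, 1685 probes (7.15%) were below the threshold. Sult2a1 and Gcsh kept their call in each setting run, and 12 of the 16 lost it when the fit held just the 10 animals on estradiol, with 13 probes called.

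**Figure D1:**
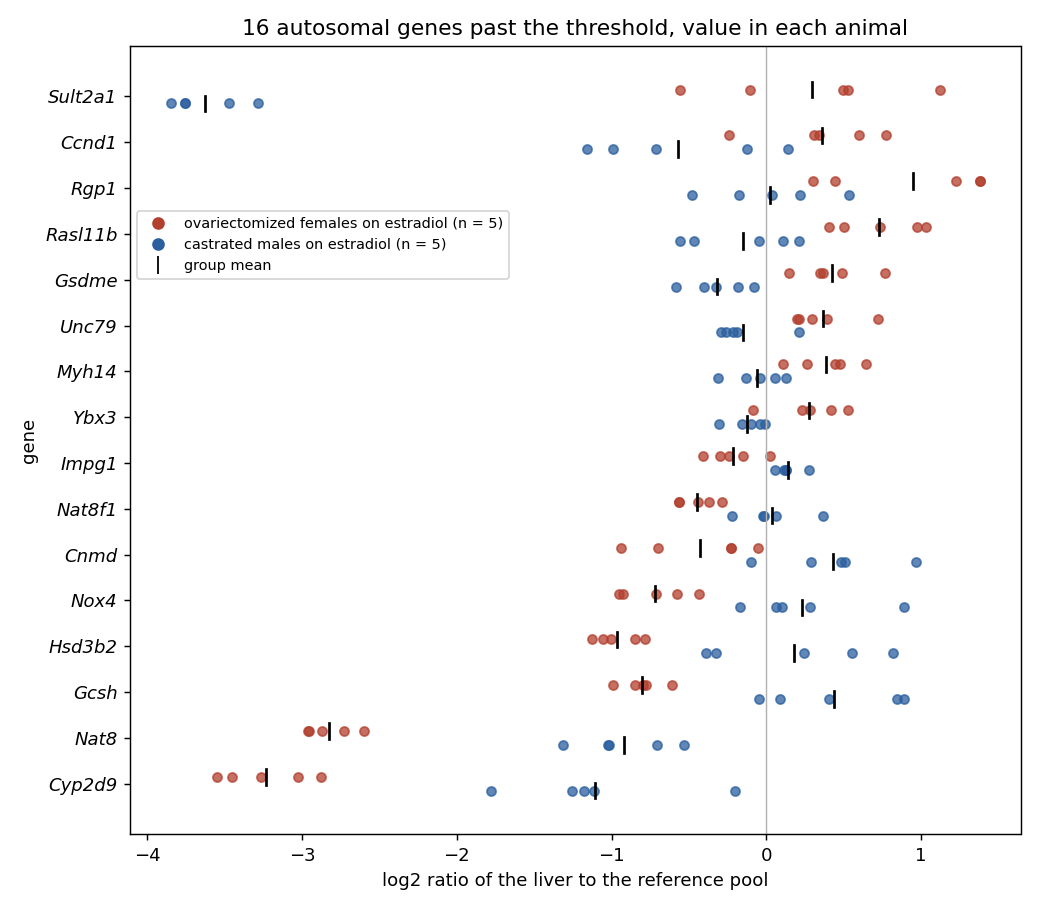
Log2 ratio to the reference pool (x axis) of the 16 autosomal genes that passed, 1 row a gene, in the 5 ovariectomized females (red) and the 5 castrated males (blue) on estradiol, with a black tick at each group mean. The groups are widest apart for Sult2a1, where females span -0.56 to 1.12 and males -3.85 to -3.28, and for Cyp2d9 and Nat8, where males lie above females.

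Sult2a1, which sulfates dehydroepiandrosterone and bile acids, showed the largest difference among autosomal genes. It lay at 1.12, -0.10, 0.50, 0.53 and -0.56 in females 33 to 37 and at -3.28, -3.48, -3.85, -3.76 and -3.76 in males 41 and 43 to 46. Every female thus lay far above every male. The difference was 3.92 ± 0.61 (SE), 15.2-fold, with a limma adjusted p of 0.000382, and a second probe of the gene gave 2.15. Castrated males on placebo lay at -2.62 ± 1.10 (SD, n = 5) and ovariectomized females on placebo at 1.15 ± 0.98 (SD, n = 5), a difference of 3.77 (adjusted p = 0.000994). Intact mice differed by 4.28 ± 0.61 (SE). On DHT the difference was 1.13 and did not pass (adjusted p = 0.621), with ovariectomized females spread from -3.51 to 1.90. The call for Sult2a1 on estradiol was kept without any single animal and in each other setting tried.

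Gsdme, which encodes the pore-forming protein gasdermin E, lay at 0.37, 0.15, 0.77, 0.35 and 0.49 in the females and at -0.41, -0.18, -0.08, -0.58 and -0.33 in the males. The groups did not overlap, and the difference was 0.74 ± 0.12 (SE; adjusted p = 0.000655), which held without each single animal and was lost when just the 10 animals were fitted. In intact mice it was 1.25, with males at -1.01 ± 0.24 (SD, n = 5). Ccnd1, the cyclin that drives entry into the cell cycle, lay at 0.77, 0.60, -0.24, 0.34 and 0.31 in females and at -0.72, -0.99, -1.16, -0.12 and 0.14 in males, so that the groups overlapped. Its difference of 0.93 ± 0.20 (SE) was near the threshold (adjusted p = 0.046), against 1.64 in intact mice. Without any one of animals 33, 34, 36, 37, 41, 43 or 44 it did not pass, with differences of 0.78 to 0.94 and adjusted p of up to 0.141 in those fits. Cell-cycle genes as a list held 1 call among 28 measured, against 0.153% of all autosomal genes, with a median of 0.06. That call was Ccnd1.

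Like Gsdme and Ccnd1, the other 5 genes higher in females differed by less than 2-fold. Rasl11b, a small Ras-like GTPase, lay at 0.40 to 1.03 in females and at -0.56 to 0.21 in males, with no overlap and a difference of 0.88 ± 0.19 (SE; adjusted p = 0.0272). Rgp1, part of an activator of the Golgi GTPase Rab6, lay at 0.30, 0.45, 1.23, 1.38 and 1.38 in females 33 to 37 and at -0.48 to 0.53 in males. Its difference was 0.92 ± 0.18 (SE; adjusted p = 0.0139), and the lowest females, 33 and 34, lay within the males' range. Myh14, a non-muscle myosin heavy chain, differed by 0.45 and Unc79, a subunit of a sodium leak channel complex, by 0.51. Ybx3, a cold-shock domain protein that binds RNA, differed by 0.40. Myh14 and Rgp1 were the 2 of the 16 genes not called between intact females and males, where they differed by 0.11 and 0.53. Calls were lost without some single animals: Rasl11b and Myh14 without 35, 36, 37, 41, 45 or 46, Rgp1 without 35, 36, 37, 41 or 45, Unc79 without 36, 41 or 46 and Ybx3 without 33, 36, 41 or 43. In the fits that lost the call the difference was 0.78 to 0.91 for Rasl11b, 0.39 to 0.45 for Myh14, 0.79 to 0.87 for Rgp1, 0.42 to 0.49 for Unc79 and 0.33 to 0.39 for Ybx3.

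Among the genes higher in castrated males, Cyp2d9 encodes a male-typical P450 that hydroxylates testosterone. It lay at -3.45, -3.26, -3.55, -3.03 and -2.88 in females and at -1.18, -1.25, -1.78, -1.11 and -0.20 in males. No animal crossed between the groups, and the difference was -2.13 ± 0.42 (SE; adjusted p = 0.0139). The females on estradiol, at -3.23 ± 0.28 (SD, n = 5), lay next to intact females at -3.19 ± 0.31 (SD, n = 5). The males on estradiol, at -1.11 ± 0.57 (SD, n = 5), lay next to castrated males on placebo at -1.38 ± 0.25 (SD, n = 5), and intact males lay at 0.65 ± 0.45 (SD, n = 5). The sex difference was -1.75 on placebo (adjusted p = 0.166) and -3.83 in intact mice. Without animal 35 the difference on estradiol was -2.05 (adjusted p = 0.0524) and without animal 46 it was -1.90 (adjusted p = 0.0951), neither of which passed. It did not pass after scale normalization either.

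Nat8, an acetyltransferase of the endoplasmic reticulum, lay at -2.97, -2.87, -2.96, -2.73 and -2.60 in females and at -0.53, -1.32, -0.70, -1.02 and -1.02 in males. The groups were clearly apart, with a difference of -1.91 ± 0.34 (SE; adjusted p = 0.00324). In intact mice the difference was -4.64, and Nat8 was the only one of the 16 for which the change between intact and estradiol-treated mice passed (2.73 ± 0.48, SE; adjusted p = 0.00215). That change did not pass after quantile or scale normalization, and the difference on estradiol not after scale normalization. On DHT the difference was -1.87 (adjusted p = 0.0051) and on placebo -1.50 (adjusted p = 0.107). The related gene Nat8f1 lay at -0.57 to -0.28 in females and at -0.22 to 0.37 in males, a difference of -0.48 ± 0.10 (SE; adjusted p = 0.0407) that was lost without any one of 8 of the 10 animals (33, 35, 36, 37, 41, 43, 45 or 46) and in those fits lay between -0.50 and -0.40. On placebo the difference of Nat8f1 had the other sign, 0.33 (limma adjusted p = 0.539), and the groups did not overlap. Its change from placebo to estradiol, -0.81, did not pass (adjusted p = 0.0844). Nat8 and Nat8f1 both lie on chromosome 6, and whether their probes cross-hybridize was not tested.

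Gcsh, which encodes the lipoyl carrier protein of the glycine cleavage system, had the smallest adjusted p among autosomal genes. It lay at -0.80, -0.61, -0.85, -0.99 and -0.78 in females and at 0.09, 0.89, 0.41, 0.84 and -0.05 in males. The groups did not overlap and differed by -1.24 ± 0.17 (SE; adjusted p = 3.2e-05). This gene passed in all 4 pairs of groups: the difference was -1.10 on placebo, -1.64 on DHT and -0.80 in intact mice. Impg1, a proteoglycan best known from the retina, also passed in all 4 pairs. It differed by -0.36 ± 0.07 (SE; adjusted p = 0.0227) on estradiol, -0.44 on placebo (adjusted p = 0.00136), -0.41 on DHT (adjusted p = 0.00421) and -0.32 in intact mice (adjusted p = 0.00301). Without 35, 36, 37, 43, 45 or 46 the difference of Impg1 lost its call, at -0.36 to -0.31.

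Hsd3b2, a 3-beta-hydroxysteroid dehydrogenase of steroid synthesis, lay between -1.13 and -0.78 in the 5 females and at 0.56, -0.33, -0.39, 0.24 and 0.82 in males. All females lay below all males, by -1.15 ± 0.24 (SE; adjusted p = 0.0259). Intact mice gave nearly the same difference, -1.19. On placebo the sign was the other way, 0.42 (adjusted p = 0.998), with castrated males at -0.80 ± 0.34 (SD, n = 5) and ovariectomized females at -0.38 ± 0.37 (SD, n = 5). Whether the difference on estradiol exceeds that on placebo was tested across all probes, and 0 probes (0%) passed in limma, with 973 at an unadjusted p under 0.05 (4.13%). The call for Hsd3b2 was lost without 36, 37, 41, 45 or 46, at -1.13 to -0.99.

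Nox4, an NADPH oxidase that makes hydrogen peroxide, lay at -0.58, -0.93, -0.43, -0.95 and -0.71 in females and at 0.28, -0.17, 0.06, 0.10 and 0.89 in males. The difference of -0.95 ± 0.18 (SE; adjusted p = 0.0112) separated all females from all males. It was -1.19 in intact mice and -0.30 on placebo. Cnmd, the matrix protein chondromodulin, differed by -0.86 ± 0.17 (SE; adjusted p = 0.0139), with females at -0.94 to -0.05 and males at -0.10 to 0.97. On placebo its difference was 0.24. Nox4 lost its call without animal 36 or 46 (-0.89 and -0.79) and Cnmd without 36, 37 or 46 (-0.79 to -0.72). Across the 16 genes, 12 differed by less than 0.5 on placebo in either direction, and 3 passed there, namely Sult2a1, Gcsh and Impg1.

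Promoters of 2 male-side genes are shown. Among the 14 passing genes with a window, Nox4 is the sole one with a STAT5-type motif. Cyp2d9 has the largest male-side difference. The windows run from 250 bases before to 50 after the start site and come from RefSeq (GRCm38.p6), and capitals mark TTCNNNGAA, a palindrome searched on both strands. The Nox4 window (chr7:87246399-87246698, plus strand) holds 1 match, which starts 222 bases before the start site, and the Cyp2d9 window (chr15:82452127-82452426, plus strand) holds 0.
Nox4: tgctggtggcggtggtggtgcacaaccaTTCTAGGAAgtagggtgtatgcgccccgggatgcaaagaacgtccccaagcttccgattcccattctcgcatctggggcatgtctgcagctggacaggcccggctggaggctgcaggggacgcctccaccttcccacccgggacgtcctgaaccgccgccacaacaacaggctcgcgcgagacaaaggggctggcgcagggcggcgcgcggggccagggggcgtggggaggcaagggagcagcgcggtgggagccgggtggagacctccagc
Cyp2d9: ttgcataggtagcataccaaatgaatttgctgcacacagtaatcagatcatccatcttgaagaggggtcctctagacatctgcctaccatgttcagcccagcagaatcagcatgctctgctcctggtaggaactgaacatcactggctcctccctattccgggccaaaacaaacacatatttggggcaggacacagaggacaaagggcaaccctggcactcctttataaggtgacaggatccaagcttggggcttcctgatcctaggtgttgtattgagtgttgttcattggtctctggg
Of the 16 genes 14 had a window in the table, while Sult2a1 and Ccnd1 had none. Among the 14, 1 held TTCNNNGAA, against 8.3% of all 32851 promoter windows. The estrogen-response element, GGTCA and TGACC with 3 bases between them, was found in 0 of the 14 and in 0.07% of all windows.

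**Figure D2:**
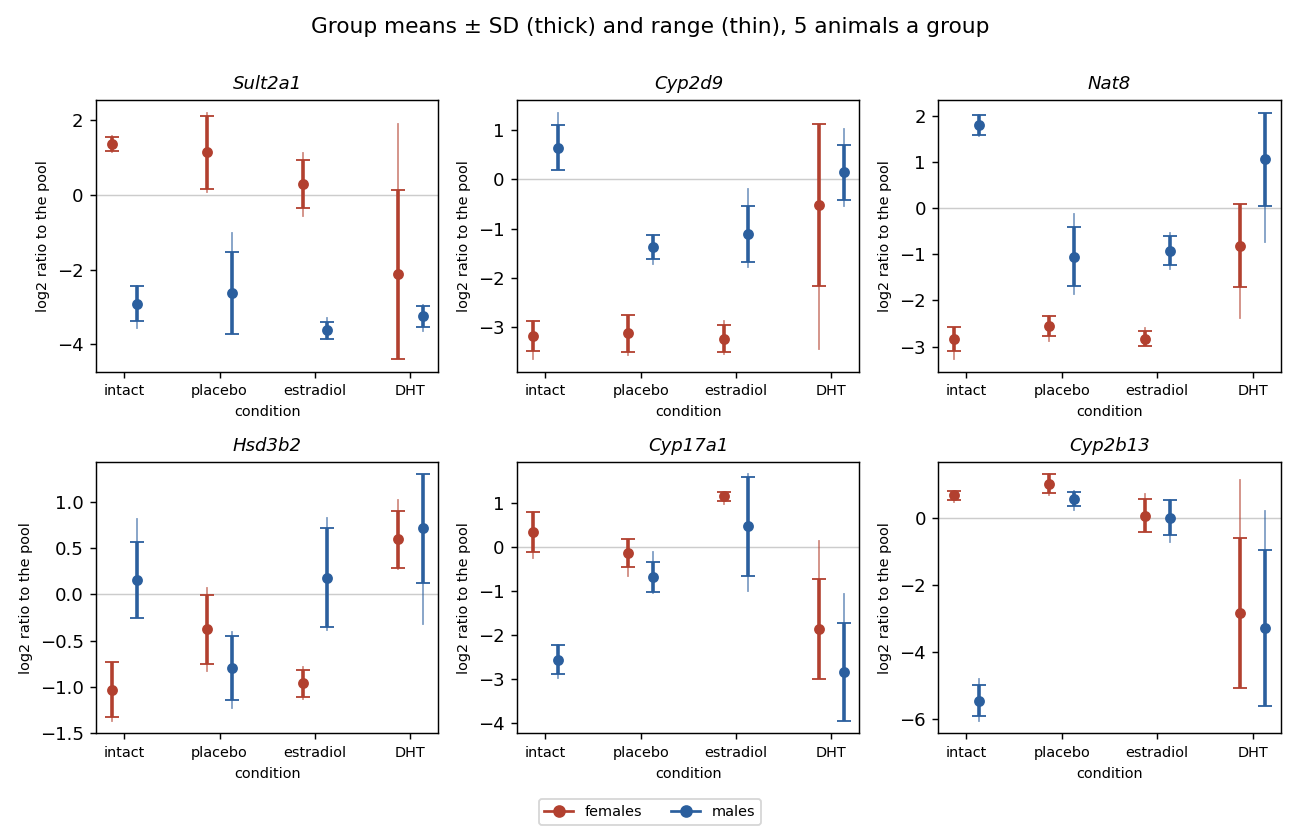
Log2 ratio to the pool (y axis) of 6 genes in females (red) and males (blue) of each condition (x axis). Points are means of 5 animals, thick bars the SD and thin bars the range. Sult2a1, Cyp2d9 and Nat8 stay apart between the sexes on estradiol, Hsd3b2 is apart in intact and estradiol-treated mice, and Cyp17a1 and Cyp2b13 overlap on estradiol.

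Set against intact mice, the estradiol-treated pair kept the direction of the sex difference in the genes that passed. Of the 16 autosomal genes 14 (87.5%) were also called between intact females and males, where 997 autosomal genes were called (9.55%), and all 14 had the same direction. The shared genes are 1.40% of those 997. The difference on estradiol was smaller than in intact mice for 9 of the 16 and not smaller for 7. For comparison, 4 autosomal genes passed on placebo (0.0383%) and 5 on DHT (0.0479%), of which 3 and 3 were among the 16.

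Most large intact sex differences did not pass on estradiol. Among the 40 genes at least 2-fold higher in intact females, with a median of 1.57, the median on estradiol was 0.29. Of these 4 passed in the same direction, against 0.0766% of all autosomal genes, and 32 had the same sign. Among the 54 genes at least 2-fold higher in intact males, the median moved from -1.37 to -0.43. Of these 4 passed in the same direction, again against 0.0766%, and 48 had the same sign. The corresponding medians were 0.18 and 0.08 on placebo and 0.34 and -0.12 on DHT. These genes were chosen for their difference in intact mice, so their intact medians are a description. The change between intact and estradiol-treated mice itself passed for 316 probes (1.34%) and 160 autosomal genes (1.53%). Of the genes at least 2-fold different in intact mice, 13 of the 40 and 23 of the 54 passed that test with a smaller difference on estradiol, and 0 with a larger one. The choice of these genes used the same intact animals as the test, which favours a smaller difference on estradiol. Their counts by direction are therefore a description. The number of calls moved with the scaling: 18 probes passed after quantile normalization and 4 after scale normalization.

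The genes with the largest change were female-typical enzymes and transporters that were low in intact males. Cyp2b13, a P450 of drug metabolism, had a mean of -5.45 ± 0.46 (SD, n = 5) over intact males. In castrated males on estradiol the mean was 0.02 ± 0.53 (SD, n = 5). Females lay at 0.69 ± 0.12 (SD, n = 5) intact and at 0.08 ± 0.49 (SD, n = 5) on estradiol. The sex difference was 0.06 ± 0.72 (SE) on estradiol against 6.14 in intact mice, a change of -6.08 ± 1.02 (SE; adjusted p = 0.00204). On placebo it was 0.45, with castrated males at 0.58 ± 0.20 (SD, n = 5). A second probe of Cyp2b13 gave 0.71 in intact mice, well below the first. The neighbouring P450 Cyp2b9 changed by -5.49 (adjusted p = 0.00119) and its second probe differed by 0.24 in intact mice.

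Slc22a26 and Slc22a27 belong to a family of organic anion transporters. Slc22a26 lay at 0.41, 0.32, 0.72, 0.09 and 0.06 in females on estradiol and at 0.74, 0.43, 0.36, 0.08 and 0.17 in males. The ranges coincided, and the difference was -0.03 ± 0.56 (SE) against 5.81 in intact mice, a change of -5.84 (adjusted p = 9.32e-05). Slc22a27 changed by -2.79 (adjusted p = 0.00414). The sulfotransferase Sult3a1 lay at 0.28 to 1.74 in females and at -0.01 to 0.96 in males on estradiol. Its intact males lay at -4.43 ± 0.31 (SD, n = 5), and it changed by -4.65 (adjusted p = 0.00468). A second probe of Sult3a1 did not show this loss. It differed by 0.92 on estradiol (limma adjusted p = 0.0879) and by 0.86 in intact mice. Cross-hybridization within these families was not tested. Each of the 5 female-side changes lost its call under scale normalization, as did the male-side changes of Elovl3, Cyp4a12a, Moxd1 and Asns. Slc22a27, Cyp4a12a and Asns also lost it under quantile normalization.

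On the male side, Elovl3, which elongates very long fatty acids, lay at -3.14 to -2.31 in females and at -3.17 to -1.35 in males on estradiol, against 2.22 ± 0.22 (SD, n = 5) in intact males. Its sex difference was -0.20 on estradiol and -3.73 in intact mice, a change of 3.53 ± 0.59 (SE; adjusted p = 0.00204). Cyp4a12a, which hydroxylates arachidonic acid, differed by -0.45 on estradiol and -3.24 in intact mice, a change of 2.80 (adjusted p = 0.00268). Moxd1, a monooxygenase related to dopamine beta-hydroxylase, changed by 3.38 (adjusted p = 0.00838), with intact males spread from -1.59 to 4.39. Asns, asparagine synthetase, changed by 2.49 (adjusted p = 0.021), with intact males at -0.75 to 2.52. Treh, the trehalose-splitting enzyme, differed by 0.05 on estradiol and -1.93 in intact mice. Asns and Moxd1 did not pass when the fit held the groups of the comparison alone, and Asns did not pass without animal 36.

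**Figure D3:**
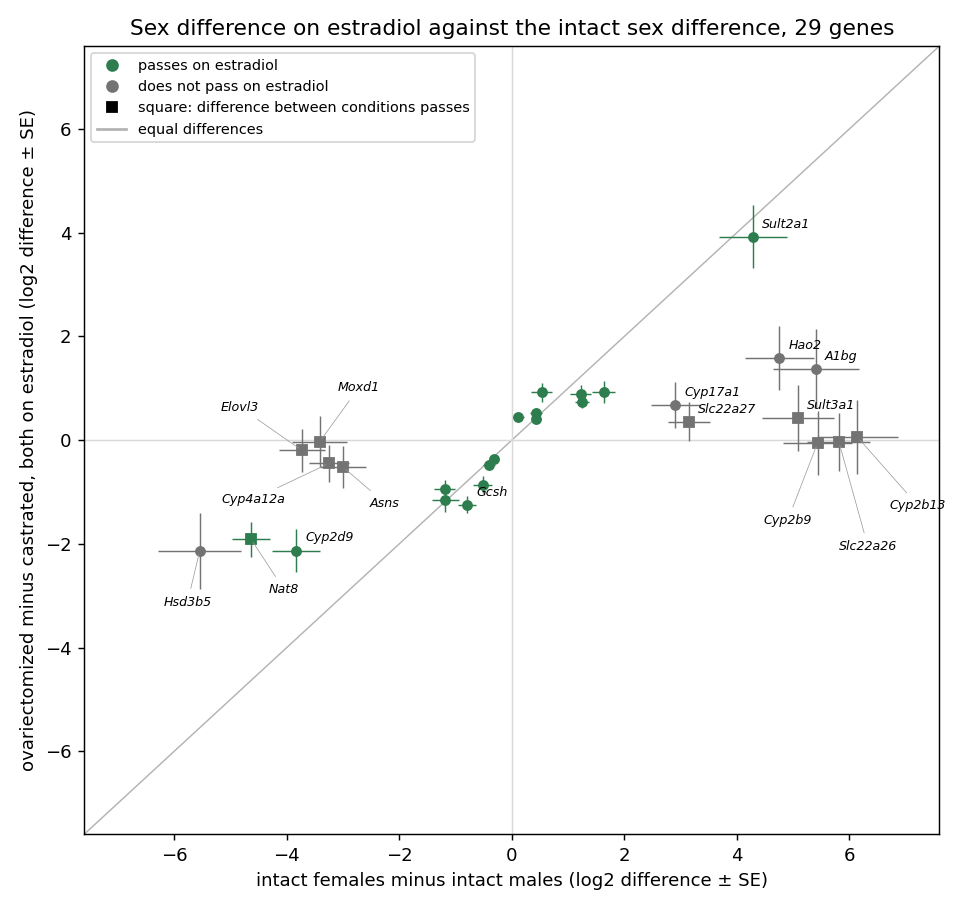
Sex difference on estradiol (y axis, log2 ± SE, ovariectomized minus castrated) against that in intact mice (x axis, log2 ± SE) for 29 genes: the 16 that passed on estradiol (green) and 13 others (grey). Squares mark genes whose change between the conditions passed, and the grey diagonal marks equal differences. Sult2a1 lies close to the diagonal, while Cyp2b13, Cyp2b9 and Slc22a26 lie close to 0 on estradiol.

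The promoters of Slc22a26 (chr19:7802618-7802917, minus strand) and Moxd1 (chr10:24223267-24223566, plus strand) are shown as one female-side and one male-side gene with a change of sex difference whose window holds TTCNNNGAA (capitals), starting 141 and 150 bases before the start site.
Slc22a26: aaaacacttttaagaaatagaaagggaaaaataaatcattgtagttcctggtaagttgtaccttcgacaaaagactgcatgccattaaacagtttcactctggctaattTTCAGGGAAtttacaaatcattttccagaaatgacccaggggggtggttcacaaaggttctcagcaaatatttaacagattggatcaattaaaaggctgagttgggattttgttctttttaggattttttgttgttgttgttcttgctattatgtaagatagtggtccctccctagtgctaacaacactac
Moxd1: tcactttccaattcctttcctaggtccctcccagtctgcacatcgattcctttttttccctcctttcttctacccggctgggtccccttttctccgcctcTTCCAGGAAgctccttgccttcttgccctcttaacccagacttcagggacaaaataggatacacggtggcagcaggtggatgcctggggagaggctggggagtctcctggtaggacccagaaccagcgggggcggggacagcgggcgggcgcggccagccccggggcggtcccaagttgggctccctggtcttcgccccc
Both were picked because they hold the motif. Among other genes with such a change, the windows of Cyp2b13, Cyp2b9, Slc22a27, Asns and Nat8 held 0 matches and that of Sult3a1 held 1. Windows of Elovl3 and Cyp4a12a are not given here. A match of letters is a description of the window and not a measured binding site.

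Several genes with large differences did not pass. Hsd3b5, a male-typical steroid dehydrogenase, lay at -3.98, -4.37, -4.07, -4.52 and -4.16 in females and at -2.71, -3.39, -2.51, -2.36 and 0.60 in males. Every male lay above every female, yet the difference of -2.15 ± 0.73 (SE) had an adjusted p of 0.434; castrated males on placebo lay at -4.04 ± 0.19 (SD, n = 5), and a second probe of the gene gave -0.11. Hao2, a hydroxy acid oxidase, lay at 0.91, -0.26, -0.23, -0.31 and -0.66 in females and at -2.53, -2.41, -1.26, -0.70 and -1.54 in males. It differed by 1.58 ± 0.61 (SE; adjusted p = 0.511), against 4.75 in intact mice. A1bg, a secreted glycoprotein of unclear function, differed by 1.38 (adjusted p = 0.777), with females at -0.81 to 1.68 and males at -1.79 to -0.29. Cyp17a1, a steroid 17-alpha-hydroxylase, was tight in females (0.98 to 1.22) and wide in males (-1.01, 1.52, 1.64, 0.21 and -0.06), with a difference of 0.68 (adjusted p = 0.844). The nearest misses on the male side were Upp2, a uridine phosphorylase, at -1.34 ± 0.30 (SE, limma adjusted p = 0.0501), and Spag6l, a flagellar protein, at -0.43 (adjusted p = 0.0501). Car1, also lower in females, differed by -0.92 (adjusted p = 0.0658). On the female side the nearest were the RNA helicase gene Ddx39b at 0.31 (adjusted p = 0.0754) and the magnesium transporter gene Mmgt2 at 0.32 (adjusted p = 0.115). Second probes of Upp2 and Spag6l gave -0.03 and -0.01.

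Lists of genes by function gave few calls. Of the 37 lists 36 had a measured member, and 28 of these held 0 called genes. Over all autosomal genes the median difference was 0.00, and 0.153% were called. Genes known as male-biased in liver had a median of -0.34 over 24 measured, 2 of them positive, and 2 passed, Cyp2d9 and Nat8; on placebo the median was 0.05 and in intact mice -1.82. Genes known as female-biased had a median of 0.12 over 28 measured, 20 of them positive, and 1 passed, Sult2a1; on placebo the median was -0.02 and in intact mice 0.99. These lists were drawn up with earlier results of these data known, so their direction is not independent evidence. The change between intact and estradiol-treated mice passed upward for 9 of the 24 male-biased genes, against 1.04% of autosomal genes, and downward for 8 of the 28 female-biased genes, against 0.489%. The choice of the lists and the use of the same intact mice in this test favour these directions. Both counts are therefore a description.

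Steroid metabolism, 19 genes measured, held 2 calls, Sult2a1 and Hsd3b2, against 0.153% of all autosomal genes, with a median of -0.02. Akr1c6, a 17-beta-hydroxysteroid dehydrogenase, differed by -0.32 and did not pass (adjusted p = 0.703). Cytochromes P450 of families 1 to 3, 31 measured, held 1 call, Cyp2d9, against the same 0.153%, with a median of -0.10. Lists of fatty acid synthesis, fatty acid oxidation, cholesterol synthesis and glucose metabolism held 0 calls, with medians between -0.04 and 0.05. Within them Pdk4, which restrains glucose oxidation, differed by 0.85 (adjusted p = 0.286), the fasting hormone gene Fgf21 by 0.37 (adjusted p = 0.175) and the insulin receptor substrate gene Irs2 by 1.02 (adjusted p = 0.257). The values of Irs2 were -0.18 to 0.28 in females and -1.70 to -0.38 in males, without overlap, and a second probe gave 0.31. Growth hormone signalling, 20 genes, held 0 calls with a median of -0.03: the receptor gene Ghr differed by -0.45 (adjusted p = 0.714) and Stat5a by 0.41 (adjusted p = 0.722). The estrogen receptor gene Esr1 differed by 0.05 ± 0.12 (SE).

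Interferon-induced genes, 27 measured, had a median of -0.11 on estradiol and 0.44 in intact mice, where 7 were higher in females (4.04% of autosomal genes); the change between the conditions passed downward for 2 of them, against 0.489% of autosomal genes, Ifit1 among them (-0.99; adjusted p = 0.0373). Serpina6, the corticosteroid-binding globulin gene, differed by -0.65 on estradiol and 1.42 in intact mice, a change of -2.07 (adjusted p = 0.00548). Clock genes were examined as an index, the mean of 9 evening genes minus the mean of 5 morning genes. It was -0.02 ± 0.22 (SD, n = 5) in females and 0.28 ± 0.25 (SD, n = 5) in males on estradiol, a difference of -0.30 with an exact two-sided permutation p of 0.0794, where the smallest possible for 5 against 5 is 0.00794. With the index as a covariate 9 of the 16 autosomal genes lost their call. Its part in the results was not tested otherwise.

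**Figure D4:**
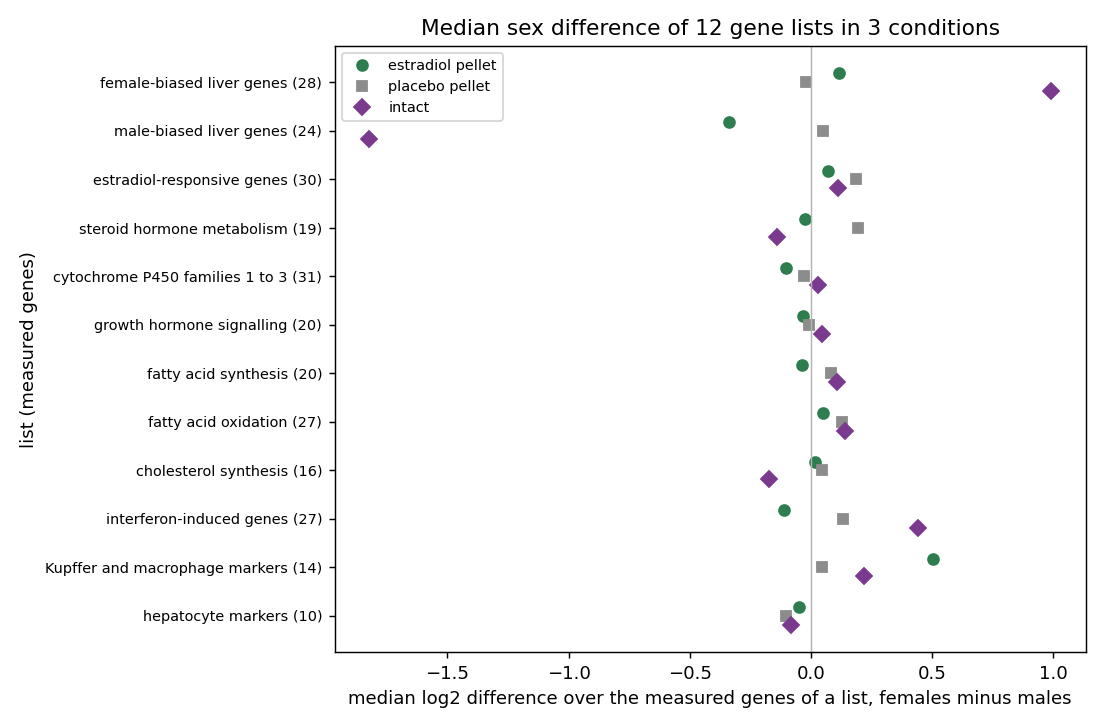
Median log2 difference, females minus males (x axis), over the measured genes of 12 lists (y axis, number of genes in brackets) on estradiol (circles), on placebo (squares) and in intact mice (diamonds). On estradiol the male-biased genes lie at -0.34 and the Kupffer and macrophage markers at 0.51, with the other lists shown between -0.11 and 0.12.

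Markers of Kupffer cells and macrophages, the resident phagocytes of the liver, held 0 calls among 14 measured. Their median difference was 0.51, 13 of 14 were positive, and the median on placebo was 0.04. By animal the median over the list was -0.07, -0.26, 0.99 and 0.46 in females 33, 34, 35 and 37, higher still in female 36, and -0.37, 0.79, 0.11, -0.09 and -0.15 in males. Females 35 and 36 and male 43 lay highest, and the groups overlapped. Vsig4, a complement receptor of Kupffer cells, lay at 0.22, -0.26, 1.47, 1.39 and 0.59 in females and at -0.43 to 0.79 in males. Timd4, a phosphatidylserine receptor, differed by 0.70 (adjusted p = 0.547), and Cxcl13, a chemokine, by 1.72 (adjusted p = 0.124). In bulk liver, more cells of a type and more RNA per cell cannot be told apart. The part of these cells in the genes that passed was not tested.

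The animals on estradiol varied more among themselves than those of most other groups. An SD of at least 1 within the group was found for 57 autosomal genes in ovariectomized females (0.546%) and 33 in castrated males (0.316%) on estradiol, against 3 to 30 in the other 6 groups. Cidea, a lipid droplet protein, lay at -1.84, -2.12, 1.65, 1.80 and 2.24 in females 33 to 37 and at -1.75, 2.18, 2.59, -1.79 and -0.50 in males. Females 33 and 34 and males 41 and 45 were thus low, near the placebo groups at -1.82 ± 0.27 and -1.63 ± 0.18 (SD, n = 5 each). Cyp7b1, an oxysterol hydroxylase, lay at -2.57, -2.92, 1.35, 0.84 and 1.31 in females and at -1.50, 1.72, 1.65, -1.34 and 0.92 in males, with the same animals lowest. Chst8, a sulfotransferase for sugar chains, lay at -1.19, -1.35, 2.53, 2.41 and 2.16 in females and at -1.07, 1.27, 1.59, -1.26 and -0.97 in males.

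The same animals were low for most of these genes. Of the 57 genes 33 had animals 33, 34, 41 and 45 as the lowest 4 of the 10, and 0 had them as the highest 4; of the 33 genes variable in males 20 did. There were 24 genes in both sets, and 17 of them had those 4 lowest. The 4 animals were named with these data known, and the genes were chosen for their spread in the same animals. These counts are thus a description, and the share over all autosomal genes was not counted. The mean of Mmd2, Dntt, Corin, Spon1 and Miox ran from -0.35 to 2.11 (median 1.72) in ovariectomized mice on estradiol. In castrated mice on estradiol it ran from -0.97 to 1.98 (median 0.23). These genes were chosen because earlier results of these same data had shown them raised by the estradiol pellet. In each of the other 6 groups the highest value of the mean was -0.60 or lower, which the choice of these genes favours. Spon1, a matrix protein, lay at -0.68, -0.90, 2.04, 1.73 and 1.98 in females and at -1.28, 2.18, 2.63, -0.63 and 0.63 in males. Corin, a membrane protease that activates natriuretic peptides, was likewise lowest in female 34 (-0.51) and male 41 (-1.45). Plasma hormone by animal was not given, and why the animals differed was not tested.

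**Figure D5:**
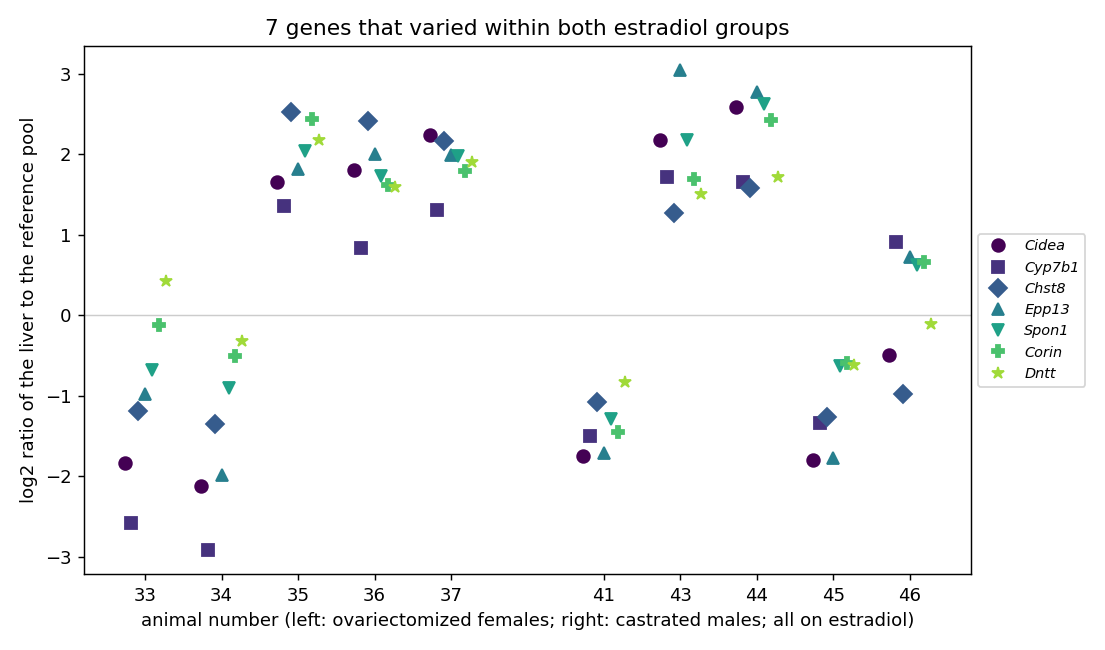
Log2 ratio to the pool (y axis) of Cidea, Cyp7b1, Chst8, Epp13, Spon1, Corin and Dntt in each animal on estradiol (x axis, animal number, ovariectomized females left and castrated males right). Points of a gene are shifted sideways so that they do not hide each other. Females 33 and 34 and males 41 and 45 are the lowest 2 animals of their group for all 7 genes.

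The number of calls moved with these animals. Without females 33 and 34, 599 probes were called, 510 higher in females and 89 higher in males, against 32 with all 10 animals, and 15 of the 16 autosomal genes kept their call, Ccnd1 being lost. This fit sets a female group chosen by its values against all males and is given for its count alone. Leaving out animal 36 gave 19 probes, the fewest of the single-animal fits, and leaving out 34 gave 47, the most. With the 5-gene mean as a covariate, an alternative added after the data were seen, 30 probes were called and 11 of the 16 genes kept their call. A few genes were high in single animals. The acute phase genes Saa1, Saa2 and Saa3, close copies for which cross-hybridization was not tested, lay at 2.97, 1.57 and 3.00 in male 43 and at -0.78 or lower in each other animal on estradiol. Tspan8, a tetraspanin, ran from -1.78 to 3.29 in females and from -1.91 to 1.95 in males, and Marco, a scavenger receptor of macrophages, from -1.38 to 3.15 and from -1.49 to 1.69.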

How the data were processed

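RNA of 40 livers was read on 2-colour arrays, per the labels with liver RNA in Cy5 and a liver pool in Cy3, with no dye swap. The deposited value table holds log10 ratios as the authors made them; background correction, normalization and centring are not given in the sources used here. That the values are log10, Cy5 over Cy3, rests on the Y-linked genes and on limits at 2 and -2, where 29 values lie (6 in the groups on estradiol). They were multiplied by 3.32 to log2. Of the probes, 13665 had 1 symbol in the platform annotation, 48 several and 9861 none; 12662 were matched to RefSeq, giving 10842 genes, of which 1157 had over 1 probe (the one with the largest SD was used).

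Groups were fitted with limma 3.58.1 in R 4.3.3 (lmFit, eBayes; 32 residual and 3.42 prior degrees of freedom, two-sided, Benjamini-Hochberg over 23574 probes); tables and figures used Python 3.11.15. The fit was tested on simulated data. Pairs of groups compared share no animals. Labels give no batch, slide or date. The members and lists were chosen with earlier results of these data known. Named genes are those that passed in each direction (15 at most, filled to 10 by p), the 5 highest and lowest of each interaction, up to 4 a list, 8 of largest SD a group and a fixed set of sex-biased genes; the major urinary proteins had 0 measured. Alternatives covered normalization, weights, filters, covariates and single animals.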

Additional observations from a re-analysis of the deposited data

Results flagged for a closer look

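Within the groups on estradiol, 1 animal lay apart from the other 4 for 11 of the 194 sets of 5 values examined (97 genes in 2 groups), 5.67%, where chance gives about 1 in 20. In females these were Mmgt2 in animal 36 (0.70), Hao2 in animal 33 (0.91), Hlf in animal 37 (0.14) and Stard6 in animal 36 (6.64, the upper limit of the table). In males they were Unc79 in animal 43 (0.22), Sult3a1 in animal 41 (-0.01), Fdps in animal 41 (-0.68), Sema3e in animal 45 (2.32), and, in animal 46, Hsd3b5 (0.60), Slco1a1 (1.07) and Dmbt1 (3.53). Hsd3b5 and Slco1a1, a bile acid and steroid transporter, are both male-typical liver genes, and male 46 was highest for each. This did not hold for all such genes. Cyp2d9 was also highest in male 46, but Nat8 and Elovl3 were highest in male 41 and Cyp4a12a in male 43. Stard6 had a second probe with a difference of -0.07.

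The sex difference on estradiol differed from that in intact mice, by the limma interaction, for 13 of these genes. It was lower on estradiol by -6.08 for Cyp2b13, -5.84 for Slc22a26, -5.49 for Cyp2b9, -4.65 for Sult3a1, -2.79 for Slc22a27, -2.07 for Serpina6 and -0.99 for Ifit1. It was shifted toward females by 2.49 for Asns, 2.80 for Cyp4a12a, 3.38 for Moxd1, 3.53 for Elovl3, 2.73 for Nat8 and 1.98 for Treh. Over all autosomal genes 160 passed this interaction (1.53%). The genes examined included the 5 highest and 5 lowest that passed it, so the count of 13 is a description.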

How the results depend on the processing

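The count of 32 probes for the sex difference on estradiol became 13 with only the 2 groups fitted, 77 with array weights, 18 when only named autosomal genes were tested (fewer probes), and 599 without animals 33 and 34; single-animal fits gave 19 to 47. The 316 probes for estradiol against intact mice became 182 with only the groups compared, 18 after quantile and 4 after scale normalization, 1012 with array weights, 167 over named autosomal genes and 784 without animals 33 and 34, with 205 to 369 over single-animal fits. The 0 probes for estradiol against placebo became 3 with array weights, 1 over named autosomal genes, 41 without animals 33 and 34 and 0 to 1 over single-animal fits. The 0 for estradiol against DHT (2671 at an unadjusted p under 0.05 in limma) became 1 after scale normalization, 1712 with array weights and 371 without animals 33 and 34. Fewer probes and fewer samples are part of some settings; otherwise the cause was not tested. Array weights ran from 0.317 to 4.04. No called value turned its direction in any setting run; of 3953 values of single genes 3789 kept their side of the threshold, 112 no longer passed and 52 newly passed. Of the 16 autosomal genes, 4 lost their call after quantile and 6 after scale normalization, 12 with only the 2 groups fitted, 9 with the clock index and 5 with the 5-gene mean as covariate, and 4 kept it without each single animal. Scaling moved the median of all differences by at most 0.01. Averaging the probes of a gene gives gene values and no count of probes. No paired analysis was possible because animal numbers are unique to each group. Signal over background was not given, so dim probes could not be told from bright ones.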
